A study of Homo sapiens with 3 samples.

Results

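The 161 genes described here lay lower on array 108, from SAS cells given ARID1A siRNA, than on both other arrays of the series. They were chosen by their log2 expression on the same 3 arrays. A gene was taken where its mean over the arrays was at least 3.52 and its array 108 value lay at least 1.5-fold (0.58 in log2) below both the array 109 value and the mock value. Of 20583 genes that met the minimum, 161 met the rule, which is 0.782%. Because every contrast among the 3 arrays entered the choice, the differences are given as descriptions, with no test.

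SAS is a human oral squamous carcinoma cell line. Its RNA was measured on 3 Affymetrix Human Gene 2.0 ST arrays, which read many short probes along each transcript. Arrays 108 and 109, named after their titles, came from cells transfected with ARID1A siRNA with Lipofectamine RNAiMAX, and the third array (title SAS NC) from mock cells. The labels do not say what the numbers stand for, whether the siRNA sequences differed, whether the cells were separate cultures, or whether mock cells received a control siRNA. Each array therefore stands alone in the comparison of array 108 with the others, and no difference has a replicate check. With so few arrays every value has an unknown error, and a difference of the culture, the RNA or the hybridisation of array 108 cannot be told apart from one of its siRNA.

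ARID1A is a DNA-binding subunit of the BAF form of the SWI/SNF chromatin remodeller, a machine that slides and evicts nucleosomes at enhancers and promoters. An siRNA is loaded into the RNA-induced silencing complex and directs cleavage of a matching transcript. It can also lower transcripts that match it only in part, at its seed.

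ARID1A itself was not among the 161 genes. Its log2 expression was 5.72 on array 108, 5.32 on array 109 and 6.79 on the mock array. It lay below the mock value on both siRNA arrays and was lowest on array 109. The 161 genes were, by the rule, lower on array 108 than on array 109. On array 109, 55 of them lay below mock, 0 of them by 1.5-fold or more. Of the cell type markers examined, 9, 6 and 8 of 9 squamous epithelial markers lay above the negative control mean on array 108, array 109 and the mock array. That mean differed by array, at 4.36, 4.65 and 4.43 in the same order. Of all genes tested, 73.3%, 64.8% and 71.0% lay above it. In the fibroblast list 1 of 4 markers (COL1A1) did so on each array, and among 2 endothelial markers 1 (CDH5) did so on array 108 and 0 on the others. None of these markers was among the 161 genes.

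Array 108 alone was low for 161 genes and high for 45 (0.219%). Array 109 alone was low for 185 genes (0.899%) and high for 107 (0.52%), and the mock array alone was low for 70 (0.34%) and high for 56 (0.272%). Low genes thus made up 78.2% of the genes apart on array 108, 63.4% of those apart on array 109 and 55.6% of those apart on the mock array. These counts share the same 3 arrays and are given side by side only. At 2-fold or more, 23 genes (0.112%) remained low on array 108 alone and 4 were high.

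The split between low and high genes depended on how the arrays were scaled. The authors' values have a median difference of 0 between arrays over the genes tested, because 68.1% of these genes had equal values on at least 2 arrays. The control probe sets for introns and exons of normalisation genes did not follow that centre. Of 1701 intron control sets that met the same minimum, 13.3% were low on array 108 alone, 2.35% on array 109 alone and 5.94% on the mock array alone. For 1449 exon control sets the shares were 9.25%, 3.11% and 3.45%, and for 77 spike-in controls they were 0%. Among the 6563 genes with 3 different values, the shares were 2.24%, 2.48% and 0.929%. Array 109 stood apart on the high side. Of the intron control sets 11.6% were high on array 109 alone and 2.65% on array 108 alone. For the exon control sets these shares were 7.52% and 1.73%. The intron control sets that met the minimum were dim, with a median level of 4.63, and the exon control sets were at 8.34. Negative control means were 4.36 on array 108, 4.65 on array 109 and 4.43 on mock. Array 108 minus array 109 had a standard deviation of 0.61 in the intron sets and 0.62 in the exon sets. Over the genes tested it was 0.23. Over all 3575 intron control sets the median difference per set was -0.14 against array 109 and -0.07 against the mock array, and over those that met the minimum it was -0.20 and -0.07. The median of the intron control sets on array 108, taken array by array, lay farther away, at -0.27 against array 109 and -0.11 against the mock array. That of array 109 lay 0.17 above the mock array, so array 109 departed from mock by more than array 108 did. With each array centred on its own intron control median, the count of low genes was 64, all of them among the 161. The count of high genes was 131, and low genes made up 32.8%. This setting was added after seeing the data. The part of these intron control shifts in the result was not tested.

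**Figure D1:**
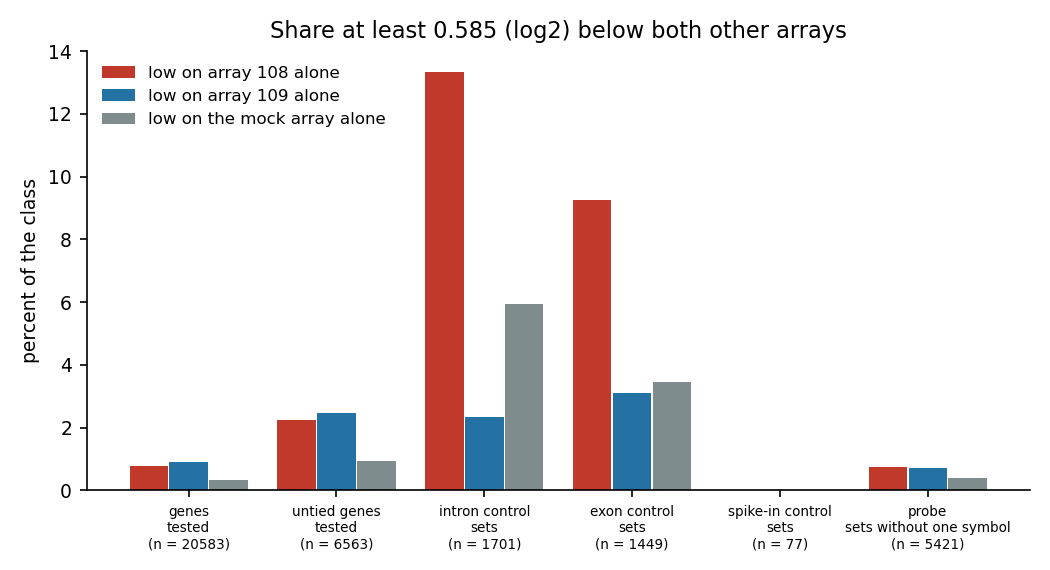
Percent of each class of probe set or gene at least 1.5-fold below both other arrays, for array 108, array 109 and the mock array in turn, among those with a mean of at least 3.52. Intron and exon control sets were low on array 108 alone more often than on either other array (13.3% and 9.25%), while 0% of the spike-in controls were.

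The margin, taken as the lower of the array 109 and mock values minus the array 108 value, had a median of 0.71 and ran from 0.59 to 1.90. The median log2 level of the 161 genes was 6.05 on array 108, 7.08 on array 109 and 7.01 on the mock array. As a group they were brighter than the genes tested, whose median level was 5.28 against 6.69 for the 161. Only 5 of the 6349 genes with a mean level under 4.5 were members (0.0788%), against 31 of the 1848 genes between 7.5 and 8.5 (1.68%). This was not particular to the 161. For genes low on array 109 alone the shares in these 2 ranges were 0.126% and 1.62%. For genes low on the mock array alone they were 0.331% and 0.271%. At the edge of the rule, DNAAF2, DESI2 and NBPF19 lay just inside with measured margins of 0.590, 0.587 and 0.586 (DNAAF2 not above the negative control mean on array 108 or 109), and LINC00941, MIR222 and MAGT1 lay just outside at 0.582. No gap in the margins marks the threshold.

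**Figure D2:**
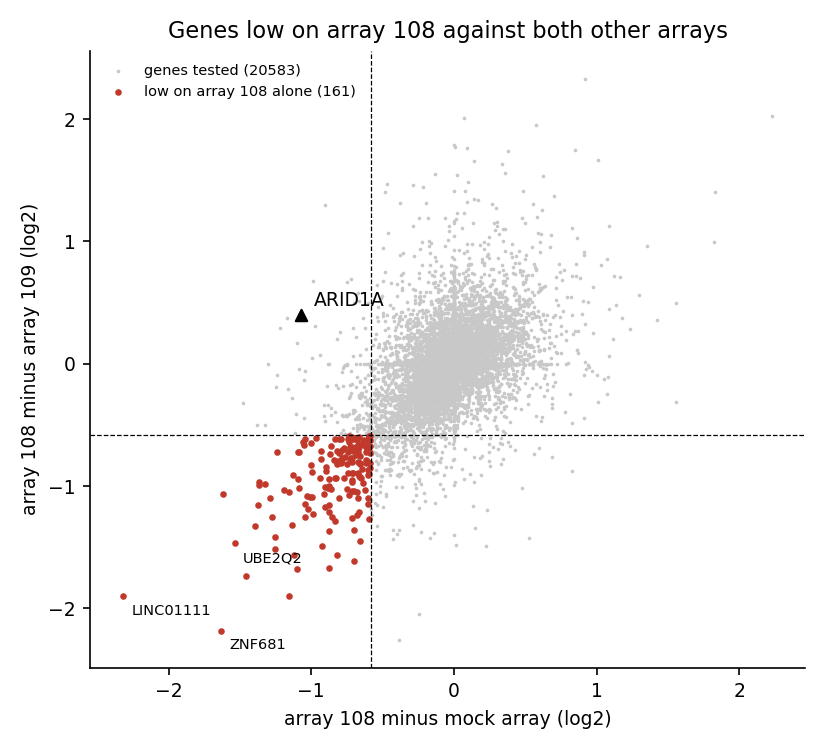
Each point is a gene tested, with its array 108 value minus the mock value on the x axis and minus the array 109 value on the y axis (log2). The 161 genes (red) fill the corner below both dashed lines at 1.5-fold, LINC01111 lies farthest from the mock array at -2.32, and ARID1A (triangle) lies at -1.07 against the mock array and 0.40 against array 109.

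On array 109 the 161 genes lay on both sides of the mock level. The array 109 value was above the mock value in 92 genes, equal in 14 and below in 55, with a median difference of 0.06, and 59 genes lay within 0.1 of mock. No gene was 1.5-fold or more below mock on array 109, and 7 were that far above it: LURAP1L-AS1, LOC105374160, MIR5047, AADACP1, AADAC, HNRNPA1 and LOC105376066. These 7 genes met the rule for high on array 109 alone as well, so all 3 arrays differed. Among genes with unequal values, 62.6% of members and 47.7% of all genes tested were higher on array 109 than on mock.

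The 131 protein coding members and the 30 other members are given apart here, as a description of values that the rule used. Of the coding members, 67 were above mock on array 109, 14 equal and 50 below, with a median difference of 0.02. Of the non-coding, pseudogene and unannotated members, 25 were above and 5 below, with a median difference of 0.23. Median log2 levels of the coding members were 6.33, 7.28 and 7.21 on array 108, array 109 and mock, and those of the other members were 4.86, 6.25 and 5.61. Over all 15452 coding genes tested, 24.5% were above mock on array 109, 45.0% equal and 30.6% below, and over the 5131 other genes tested these shares were 25.4%, 57.8% and 16.8%. The 5 non-coding members below mock on array 109 included LINC01111 and CCAT1.

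The authors' deposited table flags probe sets as lower by 2-fold or more on array 108 than on mock. The flag fell on 57 of the genes tested (0.277%), of which 36 were among the 161. The rule used the same contrast, so nothing is read from this count.

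Among regulators of transcription and chromatin, 20 genes were members, with median log2 levels of 5.69, 6.51 and 6.54 on array 108, array 109 and mock. ZNF681, a zinc finger protein of the Krüppel type (chromosome 19), was at 4.11 on array 108, 6.29 on array 109 and 5.74 on the mock array. Its array 108 value was under the mean of the negative controls, 4.36, so it was at least 2.61-fold lower there than on mock. ANP32E, a chaperone that removes the histone variant H2A.Z from nucleosomes (chromosome 1), was at 7.75, 9.07 and 8.89. INO80C, a subunit of the INO80 remodeller (chromosome 18), was at 5.42, 6.36 and 6.51. In both genes the array 109 and mock values were near each other and the array 108 value stood apart.

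SWI/SNF itself was represented by 2 of its 29 tested subunit genes, BRD7 and PHF10, beside 0.782% of all genes tested. Both encode subunits of PBAF, the SWI/SNF form that carries ARID2 and PBRM1 and lacks ARID1A. BRD7, a bromodomain protein (chromosome 16), was at 6.91 on array 108, 7.68 on array 109 and 7.63 on mock. PHF10, a PHD finger protein (chromosome 6), was at 7.49, 8.39 and 8.16. Their margins were 0.73 and 0.67, and both fell short of 1.5-fold when the arrays were centred on the intron controls, at 0.50 and 0.56. The PBAF subunit genes ARID2 and PBRM1 were not members: ARID2 was at 8.23, 8.17 and 8.17 and PBRM1 at 8.27, 8.66 and 8.43. Neither lay below both other arrays by more than 0.16. The median of the 29 subunit genes for array 108 minus the mean of the other arrays was -0.00458, beside 0 for all genes tested, and the count of 2 was not tested.

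Other members of this class were FOSL1, an AP-1 transcription factor subunit, at 9.88 on array 108, 10.79 on array 109 and 10.48 on mock, and DPY30, a core subunit of the histone H3 methyltransferase complexes, at 8.52, 9.24 and 9.61. ELL2, an elongation factor of RNA polymerase II, was at 8.74, 9.95 and 9.41. FOSL1 was the brightest of the 161 genes on array 108. The zinc finger genes ZNF141, ZNF146, ZNF367, ZNF431 and ZNF678 were also members, with measured margins from 0.60 to 0.83. ZNF678 was at 4.22 on array 108, under the negative control mean of 4.36. It was at least 1.37-fold lower there, a bound under 1.5-fold.

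**Figure D3:**
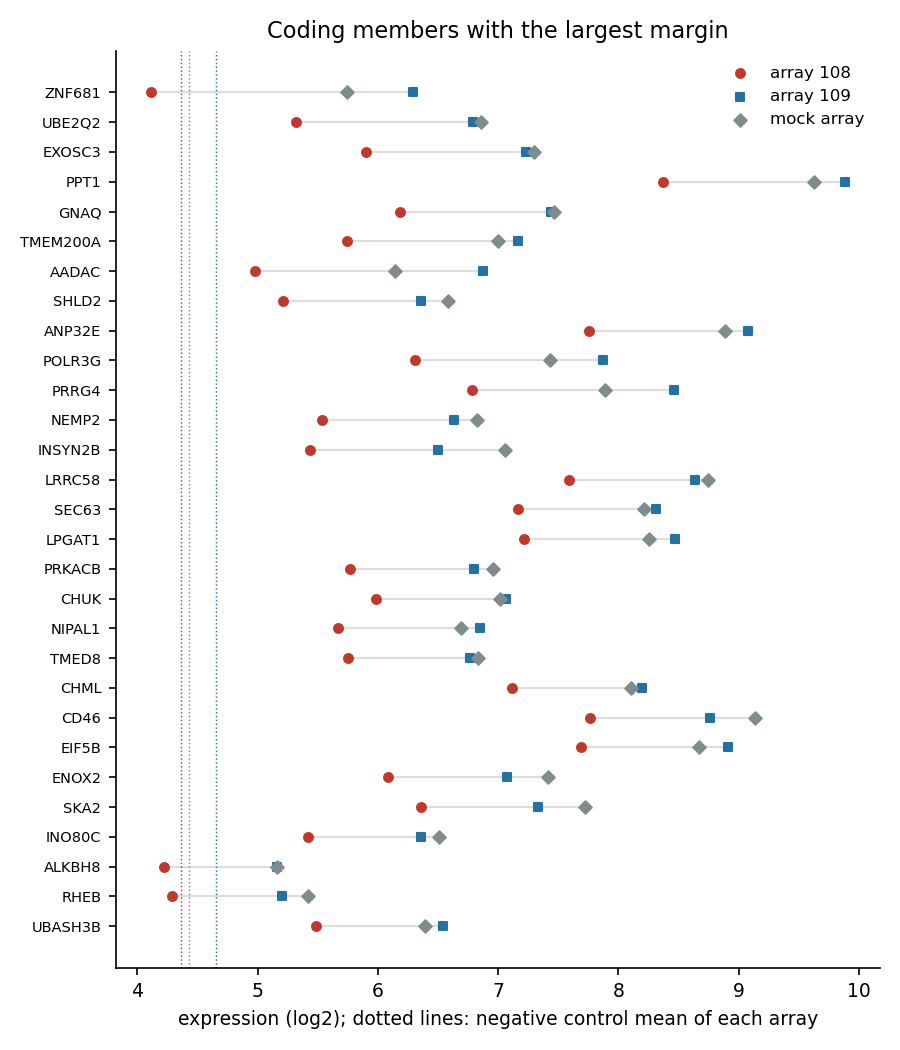
Log2 expression of 29 of the 30 coding members with the largest margin on array 108 (circles), array 109 (squares) and the mock array (diamonds), and the negative control mean of each array (dotted lines). Array 109 and mock lie close together in most rows, with array 108 to their left, and the array 108 values of ZNF681, ALKBH8 and RHEB lie below the control mean of 4.36.

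Ribosome biogenesis and the RNA polymerases that serve it contributed 8 members, with median levels of 6.91, 8.01 and 7.75. EXOSC3, a cap subunit of the RNA exosome that trims and degrades RNA (chromosome 9), was at 5.90 on array 108, 7.23 on array 109 and 7.30 on mock, a value 2.51-fold below the nearer array. POLR3G, a subunit of RNA polymerase III (chromosome 5), was at 6.31, 7.87 and 7.43. EXOSC2, another exosome subunit gene, was at 7.88, 7.95 and 8.0, within 0.12 of both other arrays. DDX21, an RNA helicase of the nucleolus, was the brightest of this class at 9.14, 10.07 and 9.79. The other members here were ESF1, DIMT1, LTV1, DDX10 and TAF1D, with margins from 0.60 to 0.83.

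In translation and the modification of tRNA and rRNA there were also 8 members. EIF5B, the GTPase that joins the ribosomal subunits at the start codon (chromosome 2), was at 7.69 on array 108, 8.92 on array 109 and 8.67 on mock. EIF3J, a loosely bound subunit of the initiation factor eIF3 (chromosome 15), was at 5.42, 6.64 and 6.30. A second EIF3J probe set that the rule did not use, from a class of extra probe sets on the array, was at 7.95, 9.17 and 8.92, with a margin of 0.97. The same order of arrays was therefore read at a brighter position of the same gene. ALKBH8, which completes a modification of the tRNA wobble base (chromosome 11), was at 4.23, 5.16 and 5.16 and was at least 1.74-fold lower on array 108.

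Among 8 genes of mRNA processing and RNA binding, none had a margin of 1 or more. SRSF1, a splicing factor (chromosome 17), was a member by the mean of 2 probe sets. Its bright probe set was at 9.82, 10.26 and 10.13, a margin of 0.30, and its dim one was at 3.93, 5.78 and 4.83, a margin of 0.91. Most of the difference of SRSF1 thus came from the dim probe set, which lay under the negative control mean on array 108. HNRNPA1, another splicing regulator, was at 5.89, 7.16 and 6.49 by its main probe set, whereas its extra probe set was at 11.37, 11.5 and 11.46, a margin of 0.0848. HNRNPA1 and its pseudogene HNRNPA1P33, also a member at 6.05, 7.09 and 6.76, have near-identical sequence and are uncertain. TAF1D showed the same spread, with margins from 0.25 to 1.20 over 5 probe sets.

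The ubiquitin pathway held 8 members. UBE2Q2, a ubiquitin-conjugating enzyme (chromosome 15), was at 5.32 on array 108, 6.79 on array 109 and 6.85 on mock, 2.77-fold below the nearer array. RNF40, an E3 ligase for histone H2B (chromosome 16), was at 6.53, 7.70 and 7.44. RNF7, a RING subunit of cullin ligases, was at 5.84, 6.63 and 6.63. UBE2Q1, the paralog of UBE2Q2, showed another order, at 7.47 on array 108, 6.75 on array 109 and 7.61 on mock, and was low on array 109 alone. COPS8, OTUD4, SPOPL, UBA6 and DESI2 completed the group with margins from 0.59 to 0.78.

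Signalling by G proteins, cAMP and kinases contributed 13 members, with median levels of 6.19, 7.28 and 7.26. GNAQ, the Gq alpha subunit that couples receptors to phospholipase C (chromosome 9), was at 6.19 on array 108, 7.44 on array 109 and 7.46 on mock. PRKACB, a catalytic subunit of protein kinase A (chromosome 1), was at 5.77, 6.80 and 6.96. CHUK, the IKK alpha kinase of the NF-kB pathway (chromosome 10), was at 5.99, 7.06 and 7.02. Each of these stood at least 2-fold below 2 similar values. RHEB, the GTPase that activates mTORC1 (chromosome 7), was at 4.29, 5.20 and 5.42, under that mean on array 108 and at least 1.79-fold lower there. SOS1, the exchange factor that activates RAS, was at 7.28, 7.91 and 7.91, and its margin of 0.63 was 0.35 with intron control centring. UBASH3B, a phosphatase that acts on tyrosine kinases, was at 5.48, 6.54 and 6.40.

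Among receptors and surface proteins, 7 genes were members. CD46, a receptor that protects cells from complement (chromosome 1), was at 7.77 on array 108, 8.76 on array 109 and 9.13 on mock. PRRG4, a membrane protein with a Gla domain (chromosome 11), was at 6.79, 8.46 and 7.89. BMPR1A, a type I receptor for bone morphogenetic proteins, was at 7.17, 7.84 and 8.22. LRP6, a WNT co-receptor, was at 6.33, 7.05 and 6.94, and PKP2, a desmosomal plaque protein, was at 7.91, 8.64 and 8.72. The margins of BMPR1A, LRP6 and PKP2 were 0.67, 0.61 and 0.73, and with intron control centring they were 0.39, 0.45 and 0.46.

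The secretory pathway and membrane traffic accounted for 12 members by a role given to members only, with median levels of 6.76, 7.67 and 7.66. A separate list of 66 membrane traffic genes held 0 members. SEC63, a partner of the protein translocon of the endoplasmic reticulum (chromosome 6), was at 7.17 on array 108, 8.31 on array 109 and 8.21 on mock. CHML, an escort protein that presents Rab GTPases for prenylation (chromosome 1), was at 7.11, 8.20 and 8.11. TMED8, a protein with a Golgi dynamics domain (chromosome 14), was at 5.75, 6.77 and 6.83. LMAN1, a cargo receptor between the endoplasmic reticulum and the Golgi, was at 8.71, 9.60 and 9.71, and SRP72, a subunit of the signal recognition particle, was at 9.13, 9.97 and 10.02. These genes serve successive steps of the pathway. SRP68, which binds SRP72, was at 9.07, 9.06 and 9.07, and nothing is read about the particle from this partner alone.

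Lipid and phosphoinositide metabolism had the highest median margin of the classes with 8 or more members, at 0.88. PPT1, a lysosomal thioesterase that removes palmitate from proteins (chromosome 1), was at 8.37 on array 108, 9.88 on array 109 and 9.63 on mock. LPGAT1, an acyltransferase for lysophospholipids (chromosome 1), was at 7.21, 8.47 and 8.26. AADAC, an esterase of the endoplasmic reticulum (chromosome 3), was at 4.98, 6.88 and 6.14. PPT1 and LPGAT1 were near mock on array 109, whereas AADAC was 0.74 above it. The neighbouring pseudogene AADACP1 followed the same order at 4.75, 6.31 and 5.57, and because the copies are alike in sequence their values are uncertain.

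DNA replication, repair and chromosome segregation contributed 7 members. SHLD2, a subunit of the shieldin complex that limits resection of broken DNA ends (chromosome 10), was at 5.21 on array 108, 6.36 on array 109 and 6.58 on mock. SKA2, a component of the kinetochore complex that holds microtubules (chromosome 17), was at 6.36, 7.33 and 7.73. CDC7, the kinase that fires replication origins, was at 7.08, 7.83 and 7.77. The genes of the partners of SKA2 did not meet the rule, with SKA1 at 7.5, 7.37 and 7.5 and SKA3 at 9.27, 9.69 and 9.61. CLSPN, the claspin gene of the replication checkpoint, was at 7.08, 7.67 and 7.67, near the edge of the rule.

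The remaining coding members fell in smaller groups. Of the 3 transporters, NIPAL1, a magnesium transporter (chromosome 4), was at 5.67 on array 108, 6.85 on array 109 and 6.69 on mock, and SLC16A1, the monocarboxylate transporter MCT1, was at 5.82, 6.84 and 6.56. Of the 5 genes of mitochondrial proteins, MTX3, TIMM17A, MRPL19, COQ10B and MRPS28, the margins ran from 0.64 to 0.90. In a mixed group of 19 genes, TMEM200A (chromosome 6) was at 5.75, 7.17 and 7.0 and LRRC58 (chromosome 3) at 7.59, 8.64 and 8.75. INSYN2B (chromosome 5) was at 5.44, 6.5 and 7.06, the member in which array 109 lay farthest below mock. NEMP2, a nuclear envelope protein (chromosome 2), was at 5.54, 6.63 and 6.82. ENOX2, an oxidase of the cell surface (chromosome X), was at 6.09, 7.08 and 7.41. FAM72D and NBPF19 belong to families with near-identical copies, as does MCTS2 among the translation genes, and their values are uncertain.

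**Figure D4:**
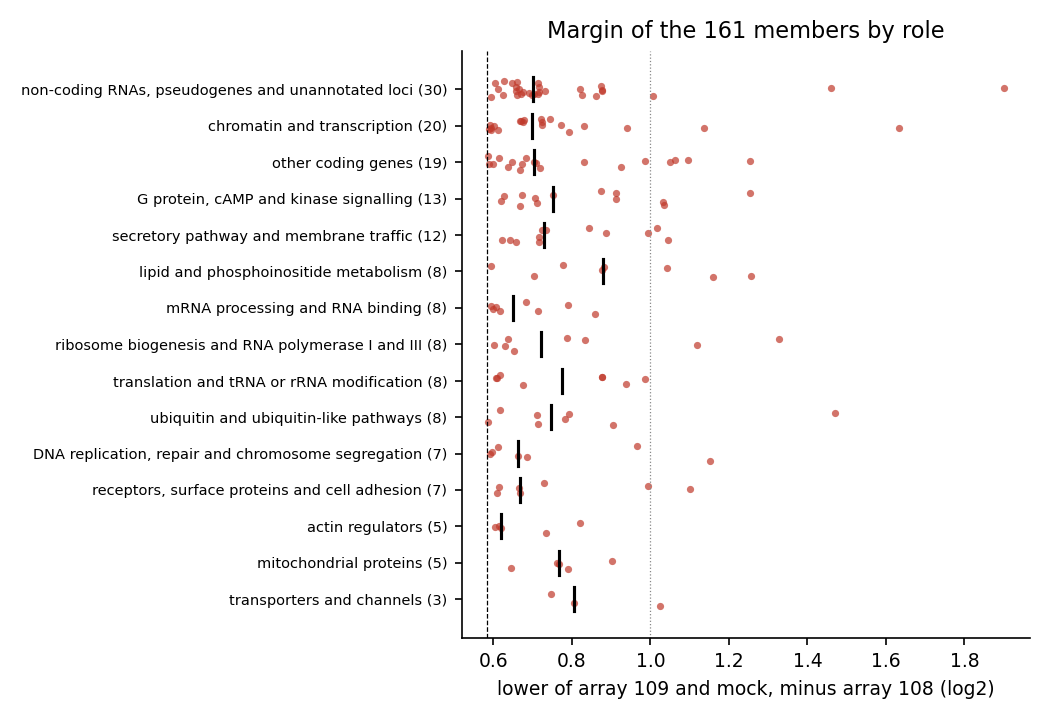
Margin of each of the 161 genes (points, log2), by role, with the median of each role (bar), the threshold of 1.5-fold (dashed) and 2-fold (dotted). The lowest margin of a role lies between 0.59 and 0.75, and the largest measured margin is that of LINC01111 at 1.90.

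Pathway lists gave few members. Of 599 genes tested in 19 lists, 8 were members: BRD7 and PHF10 in the SWI/SNF list and 1 each in 6 other lists, namely CDC7, BMPR1A, SOS1, RHEB, LRP6 and PKP2. The other 12 lists held 0 members. Among them, membrane traffic had 66 genes tested, polycomb and chromatin writers 42, mitosis and G2/M 38, RNA sensors and the interferon response 34, NF-kB targets and cytokines 29, and the RNA interference machinery 14. With 0.782% of all genes called, a count of 0 or 1 in a list of this size is near the background. The median of array 108 minus the mean of the other arrays was 0.16 in the interferon list, -0.06 in the mitosis list and 0 over all genes tested.

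Paralogs of members were set beside them. Of 23 paralogs examined, chosen after the members were known, 0 were low on array 108 alone, as against 0.782% of all genes tested, so a count of 0 is near the background. Of these paralogs 22 lay within 0.3 (log2) of both other arrays. Small differences were common over all genes tested, of which 38.0% had identical values on all 3 arrays. Their standard deviation was 0.19 for array 108 minus mock and 0.23 for array 108 minus array 109. The share within 0.3 was not taken over all genes, so nothing is read from such counts of paralogs or partners. PRKACA, the sister of PRKACB, was at 7.93 on all 3 arrays. IKBKB, the sister kinase of CHUK, was at 6.22 on all 3, and GNA11, the sister of GNAQ, was at 8.60, 8.66 and 8.73. The exception was UBE2Q1. Of 9 genes that encode partners in the same complex, 0 were low on array 108 alone and 6 lay within 0.3 of both other arrays. PBRM1, MCFD2 and SKA3 were lower on array 108, at -0.39, -0.44 and -0.43 against array 109 and -0.16, -0.21 and -0.34 against mock.

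**Figure D5:**
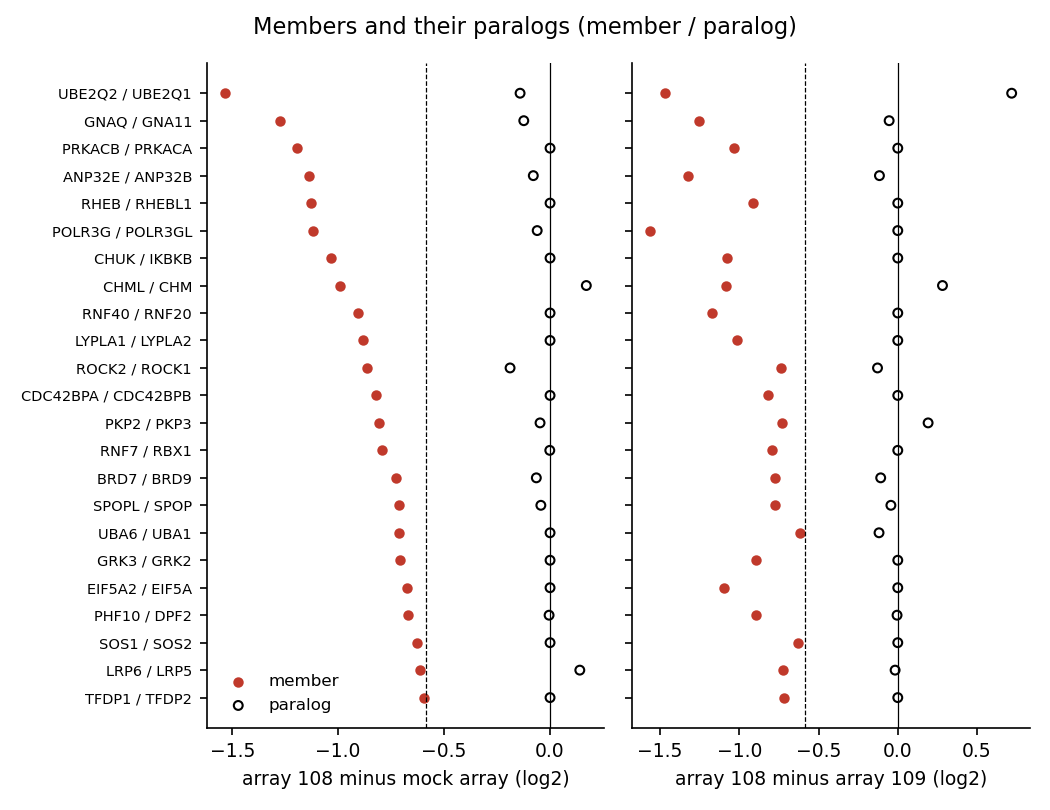
Array 108 minus mock (left) and minus array 109 (right), in log2, for members (filled) and a paralog of each (open). The paralogs lie around 0 in both panels except UBE2Q1, which is 0.72 higher on array 108 than on array 109.

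By annotation, 131 of the 161 genes (81.4%) were protein coding, against 75.1% of the genes tested, and 14 were long non-coding RNAs (8.70% against 14.9%). The gene span in RefSeq had a median of 47.1 kb in the coding members, against 27.5 kb in the 11376 bright coding genes (those above the negative control mean on array 109 and mock), 22.8 kb in genes low on array 109 alone and 17.0 kb in genes low on the mock array alone. In the deposited annotation, 51.3% of annotated coding members carried the term nucleus, against 42.8% of bright coding genes, 32.0% of genes low on array 109 alone and 40.5% of genes low on the mock array alone. Poly(A) RNA binding was at 15.9%, 10.2%, 4.76% and 2.38% in these groups, and the extracellular region at 5.13%, 7.32%, 16.3% and 26.2%. Protein kinase activity was at 7.08%, 3.74%, 1.36% and 7.14%, so genes low on the mock array had nearly the same share as the members. These terms were chosen after the annotation was seen, and the shares were not tested. The members lay on most chromosomes, with 24 on chromosome 1 (14.9% against 10% of genes tested). Chromosome 2 held 17 (10.6% against 6.80%), chromosome 4 held 12 (7.45% against 3.38%) and chromosome 19 held 6 (3.73% against 6.76%). Chromosome 21, with 1.14% of genes tested, held 0. These shares were not tested. There were 4 pairs of members next to each other among the genes tested, CDC42BPA with ZNF678, AADACP1 with AADAC, LTV1 with PLAGL1 and ZNF367 with HABP4.

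RefSeq promoters of the GRCh38.p14 build, from 250 bases before to 50 after the gene start, were matched for 103 of the 131 coding members. Their median GC content was 65.3%, against 65.7% in 9292 bright coding genes, and the median number of CpG was 27 against 26. The GC box (GGGCGG), searched like the others on both strands, was present in 71.8% of members and 71.2% of bright coding genes, and in 44.6% of all 27305 promoters in the table. The CCAAT box (CCAAT) was present in 42.7%, 36.5% and 35.7%, the ETS core (CCGGAA) in 35.0%, 30.3% and 17.6%, and the TATA box (TATAAA) in 9.71%, 5.79% and 12%. The NRF1 letters (TGCGCA) were in 14.6%, 13.4% and 8.42%, and the YY1 letters (AAGATGG) in 8.74%, 7.79% and 6.06%. In 138 promoters of coding genes low on array 109 alone, the TATA box was in 13.0%, more than in the members. There the GC box was in 67.4%, the CCAAT box in 35.5%, the ETS core in 18.1%, the NRF1 letters in 9.42% and the YY1 letters in 4.35%. A match is a description of the letters and not of a bound factor. The promoters of the 3 coding members with the largest measured margin and of both PBAF members are shown so that their differences in base content can be seen, with matches to these motifs on either strand in capitals. They lie at ZNF681 at chr19:23758842-23759141 (minus strand), UBE2Q2 at chr15:75843197-75843496 (plus strand), EXOSC3 at chr9:37785043-37785342 (minus strand), BRD7 at chr16:50368939-50369238 (minus strand), PHF10 at chr6:169724451-169724750 (minus strand).
ZNF681: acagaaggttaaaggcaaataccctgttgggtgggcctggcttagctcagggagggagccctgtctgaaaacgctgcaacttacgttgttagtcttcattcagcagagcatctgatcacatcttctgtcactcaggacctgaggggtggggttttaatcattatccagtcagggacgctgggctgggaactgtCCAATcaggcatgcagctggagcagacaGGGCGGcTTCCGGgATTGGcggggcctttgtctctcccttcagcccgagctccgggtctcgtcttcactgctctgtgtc
UBE2Q2: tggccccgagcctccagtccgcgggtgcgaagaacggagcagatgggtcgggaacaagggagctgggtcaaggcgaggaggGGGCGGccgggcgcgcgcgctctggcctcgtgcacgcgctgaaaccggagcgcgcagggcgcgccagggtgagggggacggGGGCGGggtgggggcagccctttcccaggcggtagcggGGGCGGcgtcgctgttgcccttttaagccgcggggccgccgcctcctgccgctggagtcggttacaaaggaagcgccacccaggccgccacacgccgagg
EXOSC3: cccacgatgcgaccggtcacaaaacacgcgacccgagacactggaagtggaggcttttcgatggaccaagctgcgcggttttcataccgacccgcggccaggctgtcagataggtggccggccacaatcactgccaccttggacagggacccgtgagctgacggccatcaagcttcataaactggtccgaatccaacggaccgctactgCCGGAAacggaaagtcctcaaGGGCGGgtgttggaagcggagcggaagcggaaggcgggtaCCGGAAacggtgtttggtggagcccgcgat
BRD7: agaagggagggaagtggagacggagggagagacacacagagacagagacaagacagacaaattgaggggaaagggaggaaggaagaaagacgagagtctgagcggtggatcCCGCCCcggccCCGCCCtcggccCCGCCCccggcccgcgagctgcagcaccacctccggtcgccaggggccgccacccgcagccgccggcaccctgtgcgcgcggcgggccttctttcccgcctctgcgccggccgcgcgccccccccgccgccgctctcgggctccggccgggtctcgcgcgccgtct
PHF10: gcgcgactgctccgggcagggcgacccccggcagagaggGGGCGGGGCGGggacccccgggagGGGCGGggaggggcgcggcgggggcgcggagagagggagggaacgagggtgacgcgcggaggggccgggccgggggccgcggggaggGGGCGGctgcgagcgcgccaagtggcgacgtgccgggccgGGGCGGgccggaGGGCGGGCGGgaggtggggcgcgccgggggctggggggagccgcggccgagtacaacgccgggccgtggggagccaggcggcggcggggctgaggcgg
In these windows ZNF681 holds a GC content of 55.7% with 9 CpG, and PHF10 one of 85.3% with 47 CpG. Between them lie EXOSC3 at 61%, BRD7 at 73.3% and UBE2Q2 at 74.3%. ZNF681 has 2 CCAAT boxes, EXOSC3 has 2 ETS cores, and PHF10 has 7 matches to the GC box, some of them overlapping. The 5 genes thus share a low array 108 value and differ in promoter composition.

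Of the 30 members that are not coding, the largest margins belonged to LINC01111 (chromosome 8) and LINC02806 (chromosome 1), both long non-coding RNAs. LINC01111 was at 4.97 on array 108, 6.87 on array 109 and 7.29 on mock, 3.73-fold below the nearer array and the largest margin of all 161 genes. LINC02806 was at 5.0, 6.74 and 6.46. LOC105374433 was at 4.39, 5.55 and 5.27. CCAT1, a long non-coding RNA known from colon cancer, was at 4.60, 5.21 and 5.33, and its nearest gene tested, CASC19, was at 6.45, 6.87 and 7.24. Genes that overlap or neighbour the non-coding members can be set beside them, again with 0.782% of all genes called. EIF4G1, which hosts SNORD66 (4.94, 5.90 and 5.65), was at 8.16 on all 3 arrays, and PPP1R12A, which overlaps PPP1R12A-AS1 (4.78, 6.02 and 5.45), was at 6.79 on all 3. RPL23A, the host of SNORD4B (6.32, 7.34 and 7.18), was at 6.55, 7.06 and 7.19, short of the rule. AADAC was the single neighbour that was itself a member.

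In all, 12 members were dimmer on array 108 than the negative control mean (4.36), and 7 of these were above the mean on the other arrays (4.65 on array 109 and 4.43 on mock), so that their difference is a lower bound. For PGM5-AS1, ZNF678 and RPL23AP53 this bound was under 1.5-fold, at 1.44, 1.37 and 1.23. The 5 members not above it on both other arrays were MIR590, TRBJ2-6, N4BP2L2-IT2, RPL23AP60 and DNAAF2, and their differences have no fold. RPL23AP60 has 3 probe sets with identical values, 3.51, 4.37 and 4.16, and cannot be told apart from other copies of RPL23A. PGM5-AS1 has 2 probe sets. The brighter was at 4.96, 5.45 and 5.45, a margin of 0.49, and the other was dimmer than the negative controls on each array.

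The microRNA loci MIR3130-2, MIR5047 and MIR590 were members. The probe sets measure the locus and its precursor, not the mature microRNA. MIR5047, which lies in the gene of the RNA helicase DDX5, was at 6.51 on array 108, 7.96 on array 109 and 7.17 on mock, while DDX5 was at 10.06, 10.18 and 10.14. MIR3130-2 was at 4.53, 5.13 and 5.25, while MIR3130-1, which overlaps it, was at 4.31 on all 3 arrays. MIR590, within EIF4H, was at 3.42, 4.51 and 4.43 and was not above the negative control mean on any array. The mature sequences from RefSeq (GRCh38.p14) are shown to compare the seeds, bases 2 to 8, in capitals. They lie as hsa-miR-3130-3p at chr2:206783277-206783297 (plus strand), hsa-miR-3130-5p at chr2:206783246-206783266 (plus strand), hsa-miR-5047 at chr17:64501230-64501250 (minus strand), hsa-miR-590-3p at chr7:74191253-74191273 (plus strand), hsa-miR-590-5p at chr7:74191213-74191234 (plus strand).
hsa-miR-3130-3p: gCUGCACCggagacuggguaa
hsa-miR-3130-5p: uACCCAGUcuccggugcagcc
hsa-miR-5047: uUGCAGCUgcgguuguaaggu
hsa-miR-590-3p: uAAUUUUAuguauaagcuagu
hsa-miR-590-5p: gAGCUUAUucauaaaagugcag
The 5 mature sequences have 5 different seeds.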

How the data were processed

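RNA of SAS cells was hybridised on 3 arrays, 2 of ARID1A siRNA samples and 1 of a mock sample. Affymetrix Expression Console was run by the authors, per the submitters' processing notes. How probes were summarised and background was corrected, and on which build, is not given in the sources used here. In the deposited series table each value is a log2 level of a probe set that the authors had normalized. Their deposited tables for the siRNA arrays hold linear intensity, the ratio of each siRNA array to mock, and a flag for 2-fold differences, per the file headers.

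Of 53617 probe sets, 31134 had a single gene symbol, updated through the Entrez identifier with RefSeq. Probe sets of a symbol were averaged, giving 29402 genes, and genes with a mean under 3.52, the 30th percentile, were left out. The arrays share no replicate for array 108, so no test was run. The members, the 19 lists, the roles and the paralogs were chosen with earlier results of these data known.

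Some items that the rule below covers are not reported here. The text names ARID1A, the 30 coding members with the largest margin that are above the negative control means on array 109 and mock, the 5 other members with the largest margin, members of the lists, genes at the edge of the rule, and members with several probe sets. Genes named beyond these, as examples of a role, partners or neighbours, were chosen after their values were seen. A member below the negative control mean on array 108 was compared with that mean as a lower bound. Alternatives covered scaling (limma 3.58.1 in R 4.3.3), the filter, the probe set rule, symbols, the source of the values, array 109 and the fold. Other steps used Python 3.11.15 with pandas 2.3.3 and numpy 2.4.6. The code of the rule was run on simulated data with planted drops larger than most margins here. That run checks the code only and says nothing of false calls on these arrays.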

Additional observations from a re-analysis of the deposited data

Results flagged for a closer look

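Probe sets without a single gene symbol were not part of the comparison. Of 5421 such probe sets with a mean of at least 3.52, 40 were low on array 108 alone (0.738%), against 39 on array 109 alone and 21 on the mock array alone, and 13 were high on array 108 alone. This was singled out as a signal in data that the comparison did not use. The share lies near the 0.782% of the named genes.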

How the results depend on the processing

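The count of 161 genes stayed between 131 and 174 under quantile, median and cyclic loess scaling, without the filter or with a stricter one, with the highest probe set per gene, with symbols as deposited and with the linear values. Under quantile scaling 130 of the 161 genes were kept and low genes made up 71.6% of the genes apart on array 108. Without array 109 the count was 307 and the share 66.0%, since array 108 is then set against mock only. At 2-fold the count was 23 and the share 85.2%. With intron control centring, added after seeing the data, the count was 64 and the share 32.8%, and the cause was not tested. Of the 49 named genes, 0 changed sign. All were chosen by margins of at least 1.5-fold on these same arrays, so nothing is read from that 0. In some setting 14 of the named genes lay under 1.5-fold. Intron control centring put 14 of them there, quantile scaling 6, the highest probe set per gene 3 and cyclic loess 2. No paired analysis was possible because there is a single mock array. Without replicates, the spread of array 108 is unknown, and signal near the negative control mean limits the dim members.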
